A study of Mus musculus with 6 samples.

Results

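The AP-1 and related basic leucine zipper (bZIP) transcription factors described here are 10 genes, Fos, Fosb, Fosl1, Fosl2, Jun, Junb, Batf, Batf3, Atf3 and Maff. They were taken by exact gene symbol from a deposited table of 17191 genes, in which all 10 carry the authors' entry for the bZIP family, as do 45 genes in all. The libraries came from tumours of CT26, a mouse colorectal carcinoma line, grown under the skin of BALB/c females at 6 to 8 weeks of age. There were 3 libraries from the TP-18 group, in which this agent, named in the labels by a code alone, was dosed orally at 50 mg/kg daily for 3 weeks, and 3 from the vehicle group, dosed for the same time, starting in both groups at tumour volumes of 100 to 200 mm3. The labels disagree on the cells: the series design gives CD11b+F4/80+CD206+ macrophages sorted by flow cytometry, the treatment protocol gives CD11b+ cells taken on magnetic beads, and the sample characteristics give the carcinoma line. Itgam (CD11b) had 815 to 1019 CPM (counts scaled to library size) in TP-18 libraries and 803 to 1319 CPM in vehicle libraries, Mrc1 (CD206) 629.6 to 898 CPM in TP-18 and 721 to 1452 CPM in vehicle libraries, and Adgre1 (F4/80) 108 to 257 CPM in TP-18 and 99.9 to 295 CPM in vehicle libraries, so the markers of the sort were present in all 6 libraries. The labels do not say whether each library came from a separate mouse, and p-values therefore measure the spread between these libraries, which may be partly technical.

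AP-1 is a dimer that binds DNA through paired bZIP domains. JUN proteins can pair with themselves, whereas FOS proteins need a JUN partner, and ATF, BATF and MAF proteins extend the choice of partners and of DNA sites. Fos, Fosb, Jun, Junb and Atf3 are immediate early genes, transcribed within minutes of MAP kinase, cytokine, cAMP or stress signals without new protein synthesis, and in macrophages AP-1 acts beside NF-kB on cytokine and protease genes. Immediate early genes are also known to be induced while solid tissue is turned into a cell suspension, a step that taking cells from a tumour entails in both groups. Its part in the levels below was not tested.

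The promoters of 4 members are shown because Fosb, Fos and Jun were among the most abundant transcription factor mRNAs here and because Atf3 varied most between libraries among the abundant members. Sequences are RefSeq's on GRCm38.p6, from 250 bases before the annotated start of transcription to 50 bases after it, on the gene's own strand. Capitals mark matches, on either strand, to TGACG (the core of the cAMP response element), TGACGTCA, TGANTCA (the AP-1 element), TGACATCA and TTACCTCA (the AP-1-like elements known from the Jun promoter), TATAAA, the NF-kB site or the SRF CArG box; TGACG also lies within TGACGTCA. Fosb lies at chr7:19309996-19310295 (minus strand), Fos at chr12:85473640-85473939 (plus strand), Jun at chr4:95052173-95052472 (minus strand) and Atf3 at chr1:191183284-191183583 (minus strand). The start used for Atf3 lies well inside the gene's GENCODE M21 span (191170296 to 191218039), not at the upstream end of that span.
Fosb: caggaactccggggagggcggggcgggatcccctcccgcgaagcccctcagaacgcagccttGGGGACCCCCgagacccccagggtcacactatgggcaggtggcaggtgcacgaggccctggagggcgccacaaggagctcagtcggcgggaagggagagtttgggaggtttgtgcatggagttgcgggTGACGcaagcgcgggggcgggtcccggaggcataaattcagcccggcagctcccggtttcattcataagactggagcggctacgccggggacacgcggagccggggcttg
Fos: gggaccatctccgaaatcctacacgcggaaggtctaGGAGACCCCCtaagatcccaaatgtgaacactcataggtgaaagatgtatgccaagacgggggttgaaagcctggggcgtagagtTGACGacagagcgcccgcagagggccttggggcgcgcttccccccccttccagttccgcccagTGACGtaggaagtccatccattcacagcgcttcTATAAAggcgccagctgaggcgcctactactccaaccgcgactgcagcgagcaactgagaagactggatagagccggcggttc
Jun: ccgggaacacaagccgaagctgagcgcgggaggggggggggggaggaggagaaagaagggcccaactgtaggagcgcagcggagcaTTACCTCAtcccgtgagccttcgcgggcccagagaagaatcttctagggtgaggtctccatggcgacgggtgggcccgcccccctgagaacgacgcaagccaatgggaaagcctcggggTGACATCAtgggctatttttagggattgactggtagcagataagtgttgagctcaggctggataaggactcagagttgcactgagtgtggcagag
Atf3: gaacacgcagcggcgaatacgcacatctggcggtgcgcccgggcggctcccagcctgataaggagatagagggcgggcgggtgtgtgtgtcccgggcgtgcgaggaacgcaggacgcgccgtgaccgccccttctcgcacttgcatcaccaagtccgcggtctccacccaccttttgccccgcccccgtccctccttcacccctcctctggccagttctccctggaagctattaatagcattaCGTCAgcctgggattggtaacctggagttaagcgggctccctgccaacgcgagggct
In Fos the TGACG matches start at positions -129 and -66, counted from the start of transcription, with TATAAA at -33 and an NF-kB match at -214. In Fosb a TGACG match starts at -60 and an NF-kB match at -188. Jun holds TTACCTCA at -164 and TGACATCA at -45, and Atf3 holds the reverse of TGACG at -7. Of the 9 members with an entry in the promoter table (Fosl1 had none), 6 hold TGACG, namely Fos, Fosb, Junb, Batf, Atf3 and Maff, against 20.8% of all 32851 promoter windows. Matches to the NF-kB site stand in Fos, Fosb, Fosl2 and Maff, 4 of 9, against 8.46% of windows, with Maff having 3 windows and each of the others 1. TGACGTCA is in Maff only among the 9, against 1.79% of windows, and TATAAA is in Fos and Junb, against 13.6%. TGACATCA is in Jun and Maff, against 3.62% of windows, and TTACCTCA in Jun alone of the 9, against 0.889%. No member's window holds TGANTCA (7.81% of windows) or a CArG box (1.63%), which says only that these letters are not in these windows.

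AP-1 mRNAs were among the most abundant transcription factor mRNAs in these cells under both treatments. Levels between genes are compared in the authors' FPKM, which divides each count by gene length and by the library's total count. Among the 1202 genes with a transcription factor entry in the deposited table, ranked by mean FPKM over the 6 libraries, Fosb stood at 1, Junb at 3, Jun at 4 and Fos at 7. Atf3 stood at 15, Fosl1 at 16, Maff at 34, Fosl2 at 39, Batf at 331 and Batf3 at 616. Fosb was at rank 1 in every library except TP-18 2, where it was at 3.

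Within the family the order of mean FPKM was nearly the same in both groups. In TP-18 libraries it ran Fosb (692 ± 176, SD, n = 3), Junb (584 ± 27.0), Jun (379 ± 64.1), Fos (295 ± 88.4), Atf3 (167 ± 83.5), Fosl1 (110.2 ± 12.5), Maff (65.8 ± 11.2), Fosl2 (51.6 ± 8.02), Batf (6.13 ± 1.90) and Batf3 (1.87 ± 1.27). In vehicle libraries it ran Fosb (637 ± 28.4, SD, n = 3), Junb (519 ± 58.3), Jun (445 ± 80.9), Fos (308 ± 92.6), Fosl1 (173 ± 20.5), Atf3 (139 ± 34.7), Maff (71.3 ± 12.9), Fosl2 (64.4 ± 9.39), Batf (7.61 ± 3.07) and Batf3 (0.916 ± 0.864). The libraries of Jun and Fos, of Atf3 and Fosl1 and of Maff and Fosl2 overlapped in both groups. Those of Fosb and Junb and of Fos and Atf3 overlapped in TP-18 libraries only, and those of Junb and Jun in vehicle libraries only. Within single libraries, Jun exceeded Fos throughout, Junb exceeded Jun in every vehicle library and Fos exceeded Atf3 in every TP-18 library. The order of Atf3 and Fosl1 changed between libraries in both groups. That of Fosb and Junb changed between TP-18 libraries, and that of Maff and Fosl2 between vehicle libraries. Every other neighbouring pair was apart in the group concerned, and the largest ratio of neighbouring means in both groups was that of Fosl2 to Batf.

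**Figure D1:**
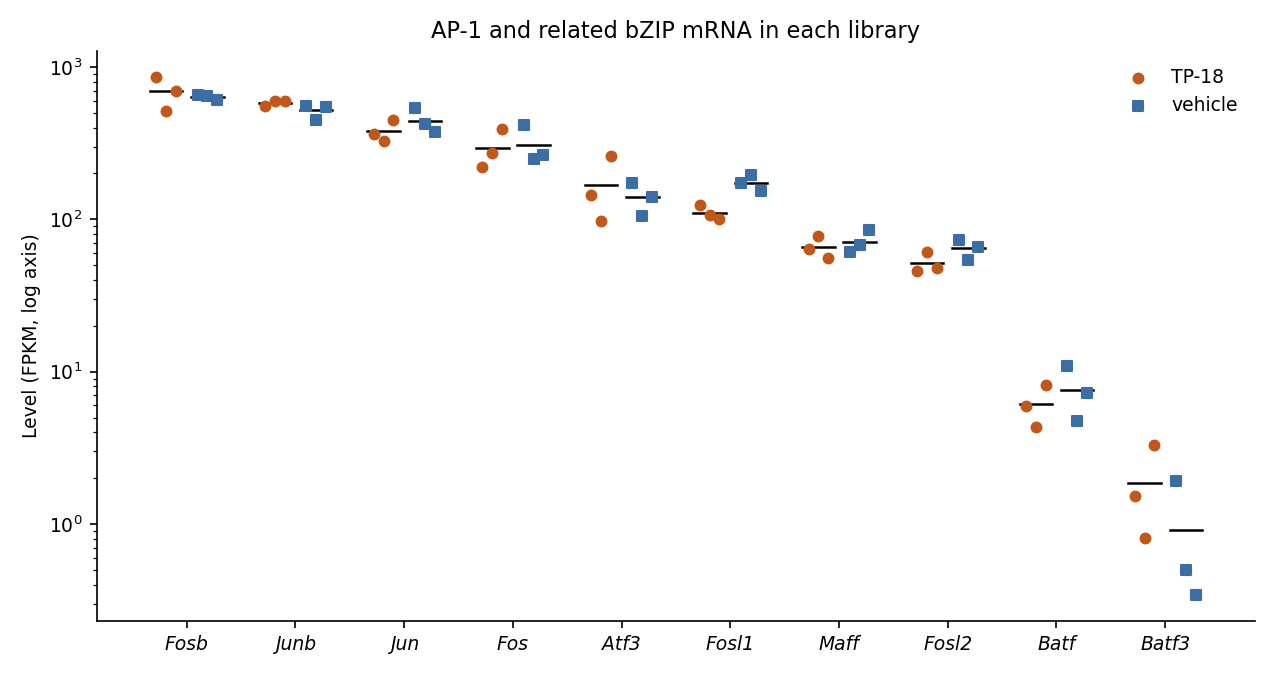
FPKM of the 10 members (log axis) in each of the 3 TP-18 libraries (circles) and 3 vehicle libraries (squares), with a line at each group's mean. The genes span from Fosb, at 692 FPKM in TP-18 and 637 FPKM in vehicle libraries on average, down to Batf3, at 1.87 FPKM in TP-18 and 0.916 FPKM in vehicle libraries, and the TP-18 points of Fosl1 (100.0 to 124 FPKM) all sit below its vehicle points (153 to 194 FPKM).

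Some libraries stood apart in ways that cut across treatment. Over the tested genes vehicle 1 correlated more closely with TP-18 3 and TP-18 1 (both Pearson r = 0.98 on log2 CPM, across genes, which are not replicates) than with vehicle 2 or vehicle 3 (0.96 and 0.97). Total counts were 16371128 to 17597645 per library. Summed monocyte markers were low in the same 3 libraries, at 388, 1559 and 373 CPM in TP-18 libraries 1 to 3 and 345, 1837 and 1422 CPM in vehicle libraries 1 to 3. Macrophage markers summed to 4426 to 6603 CPM in TP-18 libraries and 3893 to 8457 CPM in vehicle libraries. Fibroblast and pericyte markers did not overlap between treatments, at 1864, 1633 and 1496 CPM in TP-18 libraries against 1204, 896 and 749 CPM in vehicle libraries. Mast cell markers did not overlap either, at 21.1, 33.3 and 10.7 CPM in TP-18 libraries against 5.78, 5.35 and 3.31 CPM in vehicle libraries. Endothelial markers were at 104 to 187 CPM in TP-18 libraries and 35.3 to 179.8 CPM in vehicle libraries, and all 8 tested had positive log2 fold changes. Skeletal muscle markers, of which all 5 tested were negative, were at 10.5 to 57.1 CPM in TP-18 libraries and 45.1 to 79.1 CPM in vehicle libraries, and the 5 tested markers of other dendritic cells, also all negative, at 102 to 114 CPM in TP-18 libraries and 105 to 158 CPM in vehicle libraries. Neutrophil markers summed to 58.6 to 134 CPM in TP-18 and 55.5 to 228 CPM in vehicle libraries, and B and plasma cell markers to 2.71 to 8.79 CPM in TP-18 and 1.38 to 3.93 CPM in vehicle libraries. No marker of any list passed the edgeR test. Carcinoma and epithelial markers summed to 247 to 512 CPM in TP-18 libraries and 344 to 532 CPM in vehicle libraries, nearly all of it Krt20, with Epcam at 0.055 to 1.07 CPM over the 6 libraries. The part of these cell types in the values below was not tested.

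The treatment comparison asked whether these mRNAs differed after TP-18. No member passed. With edgeR's quasi-likelihood test on the counts and adjustment by Benjamini-Hochberg over the 12721 genes tested, 0 of 10 members were past an adjusted p of 0.05, where 0.11% of all tested genes were, 0.0865% lower and 0.0236% higher. All 10 members were tested. At an unadjusted p under 0.05 there were 2 members lower in TP-18 libraries, Fosl1 and Fosl2, and 0 higher, against 8.7% lower and 7.56% higher among all tested genes. DESeq2 called 1 member, Fosl1, against 2.51% of genes called lower by that tool. The groups did not overlap in CPM for the same 2 members, both lower. Among all tested genes 11.7% were apart and lower, 11.6% apart and higher, and so 23.3% apart in either direction. Log2 fold changes of TP-18 over vehicle were negative for 8 of 10 members, against 47.4% of tested genes, with a median of -0.27 beside 0.02 over all tested genes. These signs depend in part on scaling: with library totals in place of TMM factors the median of all genes moved to 0.20, and Fosb and Junb turned positive.

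**Figure D2:**
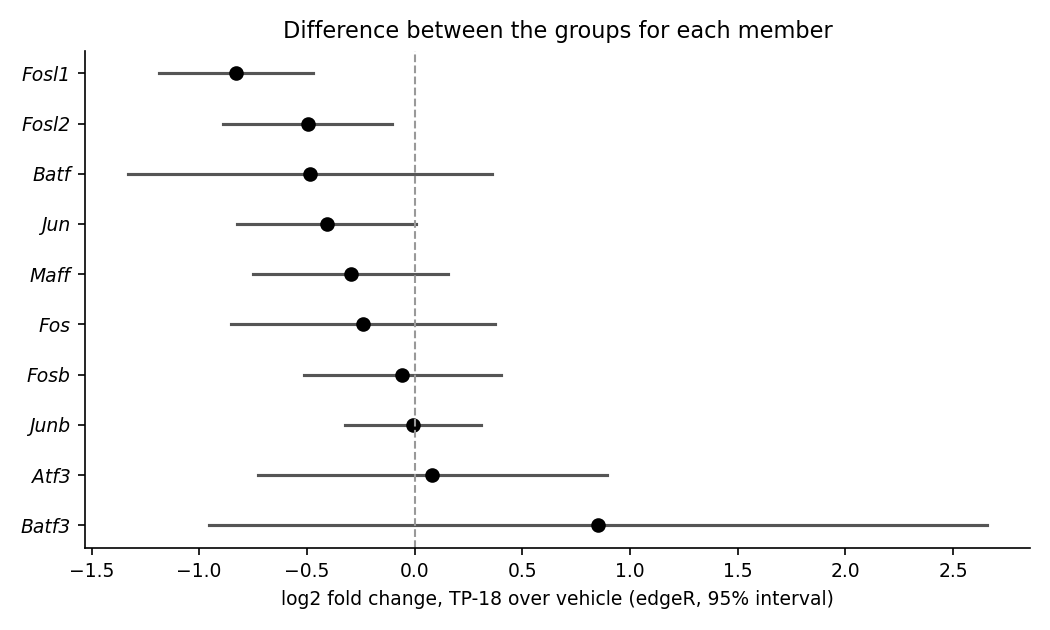
Log2 fold change of TP-18 over vehicle for each member (point) with its 95% interval (line), from edgeR's quasi-likelihood fit. The intervals of Fosl1 (-1.19 to -0.47) and Fosl2 (-0.89 to -0.10) lie below 0, the other 8 include 0, and that of Batf3 is the widest (-0.95 to 2.66).

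Of the FOS proteins, Fosl1 and Fosl2 encode the Fos-related antigens, which lack the strong transactivation domain of Fos and Fosb and are typically induced later and for longer. Fosl1 had 201, 171 and 159 CPM in TP-18 libraries 1 to 3, against 306, 354 and 283 CPM in vehicle libraries 1 to 3. All TP-18 libraries lay below all vehicle libraries, also in FPKM, with the highest TP-18 value well short of the lowest vehicle value. The log2 fold change was -0.83 ± 0.15 (SE), with an unadjusted p of 0.000758 and an edgeR adjusted p = 0.112. Over the 16 alternative fits its adjusted p ran from 0.00033 with DESeq2, the only fit that called it, to 0.355 in edgeR without TP-18 1. The estimate stayed between -0.93 and -0.75 when any 1 library was left out, and was -0.65 with library totals as scaling. In GENCODE M21, 1163 exonic bases of Fosl1 are shared with Ccdc85b on the opposite strand, and whether strand was used in counting is not given in the sources used here, so the reads there cannot be assigned to either gene with certainty. Ccdc85b had 29.3, 39.8 and 32.5 CPM in TP-18 libraries, against 32.6, 42.4 and 33.6 CPM in vehicle libraries, with overlapping groups and levels far under those of Fosl1. These counts carry the same uncertainty, so they do not show how many reads in the shared bases came from Ccdc85b. The fibroblast and pericyte markers were also apart between the groups (1496 to 1864 CPM in TP-18 and 749 to 1204 CPM in vehicle libraries). So were the mast cell markers (10.7 to 33.3 CPM in TP-18 and 3.31 to 5.78 CPM in vehicle libraries). Both sets of markers were higher in TP-18 libraries, opposite to Fosl1 and Fosl2. Their part in the values of these genes was not tested.

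Fosl2 had 309, 404 and 319 CPM in TP-18 libraries, against 537, 412 and 505 CPM in vehicle libraries. TP-18 2 lay just below vehicle 2, and in FPKM, which has no TMM scaling, these libraries crossed, at 60.8 in TP-18 2 and 54.4 in vehicle 2. The log2 fold change was -0.50 ± 0.17 (SE), unadjusted p = 0.0199 and edgeR adjusted p = 0.238. With library totals it was -0.32 (edgeR unadjusted p = 0.104), and it was -0.44 (0.0555) leaving out vehicle 1, -0.42 (0.0820) leaving out TP-18 1 and -0.44 (0.0662) leaving out TP-18 3, with edgeR's unadjusted p in brackets. In bulk libraries such as these, fewer cells that express a gene and less of its mRNA per cell cannot be told apart.

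Fos, the founding member of the family, had 438, 541 and 774 CPM in TP-18 libraries, against 909.6, 558 and 601 CPM in vehicle libraries. The groups overlapped, and vehicle 1 and TP-18 3 were the highest libraries. The log2 fold change was -0.24 ± 0.26 (SE; 95% interval -0.85 to 0.38; edgeR adjusted p = 0.681), and it was -0.01 without vehicle 1, -0.07 without TP-18 1, -0.38 without vehicle 2, -0.49 without TP-18 3 and -0.06 with library totals. Fosb, whose protein closely resembles Fos, had 3096, 1816 and 2467 CPM in TP-18 libraries, against 2587, 2613 and 2474 CPM in vehicle libraries. TP-18 1 was the highest and TP-18 2 the lowest of the 6, so the vehicle libraries lay within the range of the TP-18 libraries. The log2 fold change was -0.06 ± 0.20 (SE; 95% interval -0.51 to 0.40; edgeR adjusted p = 0.909) and was 0.12 both with library totals as scaling and without TP-18 2.

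Of the JUN proteins, Jun is the main transactivating partner of Fos, and Junb is a weaker activator that can oppose Jun. Jun had 1094, 972 and 1341 CPM in TP-18 libraries, against 1771, 1448 and 1300.5 CPM in vehicle libraries. Only TP-18 3 and vehicle 3 crossed. Its log2 fold change was -0.41 ± 0.18 (SE; 95% interval -0.82 to 0.01), with an unadjusted p of 0.0534 and an edgeR adjusted p = 0.316, and it was -0.23 with library totals. Junb had 965, 1034 and 1033 CPM in TP-18 libraries, against 1063, 890.2 and 1096 CPM in vehicle libraries. It had the narrowest spread of the 10, and its groups overlapped. Its log2 fold change was -0.01 ± 0.14 (SE; 95% interval -0.32 to 0.31; edgeR adjusted p = 0.984), 0.17 with library totals and 0.05 with upper quartile factors. GENCODE M21 gives Jun 232 exonic bases shared with Junos and Junb 173 shared with Prdx2, both on the opposite strand, with the same uncertainty. Prdx2 had 152, 136 and 125 CPM in TP-18 libraries, against 157, 195 and 117 CPM in vehicle libraries.

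The remaining members pair with JUN or with other bZIP proteins. Atf3, a stress-induced factor that limits cytokine transcription in mouse macrophages, had 270.2, 180.0 and 479.7 CPM in TP-18 libraries, against 358, 222 and 298 CPM in vehicle libraries. TP-18 libraries held both the highest and the lowest value. Its log2 fold change was 0.08 ± 0.35 (SE; 95% interval -0.73 to 0.89; edgeR adjusted p = 0.926), and it was -0.38 without TP-18 3, 0.36 without TP-18 2 and -0.01 with limma-voom. Maff, a small MAF protein without a transactivation domain, had 200.4, 239 and 170.1 CPM in TP-18 libraries, against 207, 237 and 305 CPM in vehicle libraries. The groups overlapped (log2 fold change -0.30 ± 0.20, SE; 95% interval -0.75 to 0.16; edgeR adjusted p = 0.484). This value was -0.14 without vehicle 3, -0.18 without TP-18 3 and -0.11 with library totals.

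Batf and Batf3, which pair with JUN proteins and bind DNA together with IRF factors in lymphocytes and dendritic cells, were at low levels. Batf had 5.07, 3.69 and 6.88 CPM in TP-18 libraries, against 10.2, 4.59 and 7.08 CPM in vehicle libraries, from counts of 68 to 166. The groups overlapped, with vehicle 1 highest and TP-18 2 lowest (log2 fold change -0.48 ± 0.36, SE; edgeR adjusted p = 0.538). Its log2 fold change was -0.19 without vehicle 1, -0.29 without TP-18 2, -0.74 without vehicle 2 or TP-18 3 and -0.31 with library totals. The summed CPM of 10 T and NK cell markers was 10.8, 4.02 and 15.8 in TP-18 libraries and 17.9, 3.15 and 13.04 in vehicle libraries, with TP-18 2 and vehicle 2 lowest for these markers and for Batf alike. Batf3 had 19, 10 and 40 counts in TP-18 libraries, or 1.02, 0.543 and 2.18 CPM, against 23, 6 and 4 counts, or 1.41, 0.378 and 0.265 CPM, in vehicle libraries. TP-18 3 and vehicle 1 were highest, and the groups overlapped (log2 fold change 0.85 ± 0.78, SE; edgeR adjusted p = 0.612). Without vehicle 1 the log2 fold change was 1.91 and without TP-18 3 it was 0.18, and neither fit called the gene. The summed CPM of 7 markers of conventional dendritic cells of type 1, the cells that need Batf3, was 279.7, 171 and 336 in TP-18 libraries and 292, 113 and 173 in vehicle libraries, with TP-18 3, vehicle 1 and TP-18 1 highest, as for Batf3. Their defining markers Xcr1 and Clec9a were near 0 in all libraries, at up to 0.162 and 0.485 CPM. The part of either cell type in the values of Batf and Batf3 was not tested.

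The 10 genes did not share one profile over the libraries. Vehicle 1 and TP-18 3 were the highest pair of libraries for Fos, Atf3 and Batf3, whereas TP-18 2 was the lowest for Fosb, Jun, Batf and Atf3. The highest library exceeded the lowest by 1.23-fold for Junb, by 1.71-fold to 2.22-fold for Fosb, Fosl2, Maff, Jun, Fos and Fosl1, by 2.66-fold for Atf3, by 2.77-fold for Batf and by 8.25-fold for Batf3. Among the 2207 tested genes with a mean of at least 100 CPM, the median of this ratio was 1.57 and the quartiles were 1.36 and 1.90. By likeness over the 6 libraries, as a description from 9187 genes with a mean of at least 10 CPM, the genes closest to Fosb were Dynll2 (Pearson r = 0.968) and Rabepk (0.967). Those closest to Junb were Ankrd13a (0.998) and Ap5s1 (0.988), to Jun Crlf3 (0.991) and Naa25 (0.982), and to Fos Ercc3 (0.987) and Clptm1l (0.978).

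**Figure D3:**
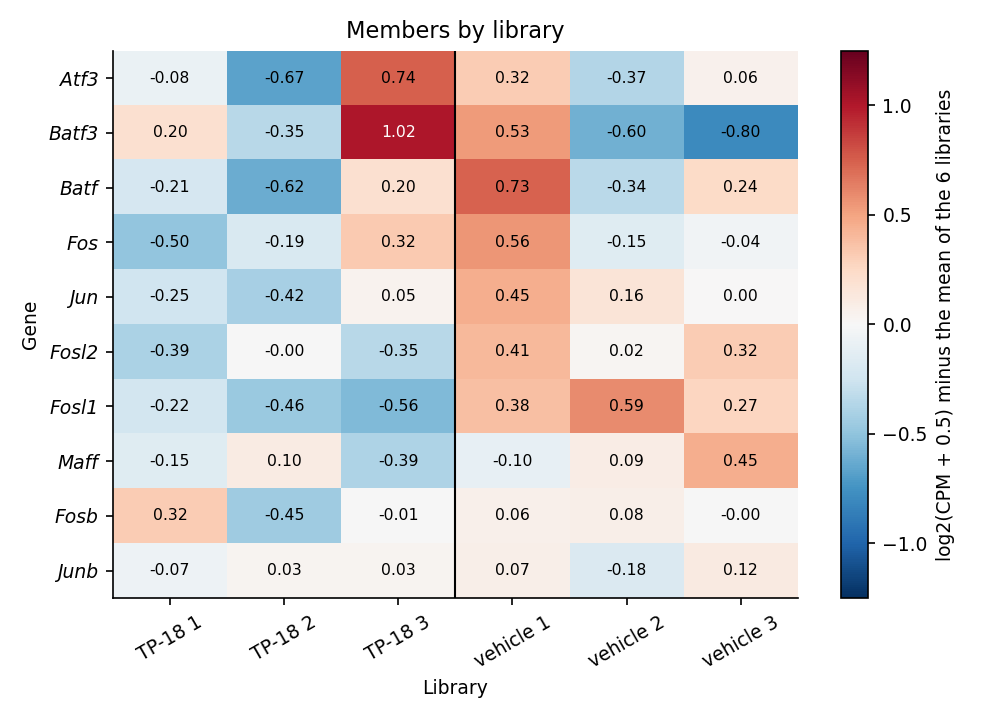
Level of each member (rows) in each library (columns, TP-18 left of the line and vehicle right of it), as log2(CPM + 0.5) minus the mean of the 6 libraries. Fosl1 is below its mean in all TP-18 libraries (-0.56 to -0.22) and above it in all vehicle libraries (0.27 to 0.59), whereas Atf3 and Batf3 are highest in TP-18 3 (0.74 and 1.02) and next highest in vehicle 1 (0.32 and 0.53).

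On GRCm38 the members are protein-coding genes on 8 chromosomes, and some are neighbours. Atf3 (Entrez 11910, chromosome 1, 191170296 to 191218039, minus strand) and Batf3 (381319, 191097847 to 191108945, plus strand) are 61350 bases apart. Fos (14281, chromosome 12, 85473890 to 85477273, plus strand) and Batf (53314, 85686669 to 85709087, plus strand) are 209395 bases apart. Fosl1 (14283) spans 5447547 to 5455946 on chromosome 19, Fosl2 (14284) 32135801 to 32157842 on chromosome 5 and Fosb (14282) 19302696 to 19310051 on chromosome 7. Jun (16476), a gene of 1 exon, spans 95049034 to 95052222 on chromosome 4, Junb (16477) 84974484 to 84978718 on chromosome 8 and Maff (17133) 79346621 to 79359076 on chromosome 15. In the pathway entries of the deposited table, 6 members share osteoclast differentiation, the program by which myeloid precursors become bone-resorbing cells, namely Fos, Fosb, Fosl1, Fosl2, Jun and Junb, and 4 share IL-17 signalling, namely Fos, Fosb, Fosl1 and Jun.

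Shares within a family do not depend on how libraries are scaled. The 4 FOS genes together had 1254, 953 and 1238 FPKM in TP-18 libraries, against 1319, 1142 and 1087 FPKM in vehicle libraries, and the 10 members had 2384, 2056 and 2614 FPKM in TP-18 libraries, against 2658, 2197 and 2246 FPKM in vehicle libraries. Both sums overlapped between the groups. Of the FOS sum, Fosl1 made up 9.90%, 11.2% and 8.07% in TP-18 libraries, against 13.1%, 17.0% and 14.1% in vehicle libraries. The groups were apart, with means of 9.72 ± 1.56% in TP-18 and 14.7 ± 2.03% in vehicle libraries (SD, n = 3 each; exact two-sided permutation p = 0.1, adjusted over 7 genes 0.233), and 0.1 is the smallest p that 3 against 3 libraries allow. Fosb made up 59.7 ± 8.12% in TP-18 libraries and 54.1 ± 3.60% in vehicle libraries, Fos 25.9 ± 7.48% in TP-18 and 25.8 ± 5.09% in vehicle libraries, and Fosl2 4.64 ± 1.51% in TP-18 and 5.45 ± 0.652% in vehicle libraries, all with overlapping groups.

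In the JUN family, Junb made up 47.5%, 53.1% and 45.6% of the sum of Jun, Junb and Jund in TP-18 libraries, against 38.6%, 37.2% and 44.6% in vehicle libraries. The groups were apart, narrowly so between TP-18 3 and vehicle 3, with means of 48.7 ± 3.88% in TP-18 and 40.1 ± 3.96% in vehicle libraries (SD, n = 3 each; exact two-sided permutation p = 0.1, adjusted 0.233). Jund, a JUN protein expressed broadly in resting cells, made up 21.5%, 18.1% and 20.2% in TP-18 libraries, against 24.3%, 27.9% and 24.8% in vehicle libraries (exact two-sided permutation p = 0.1, adjusted 0.233). Its groups were apart too. Jun made up 31.4 ± 2.70% in TP-18 and 34.2 ± 3.34% in vehicle libraries, with overlap.

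**Figure D4:**
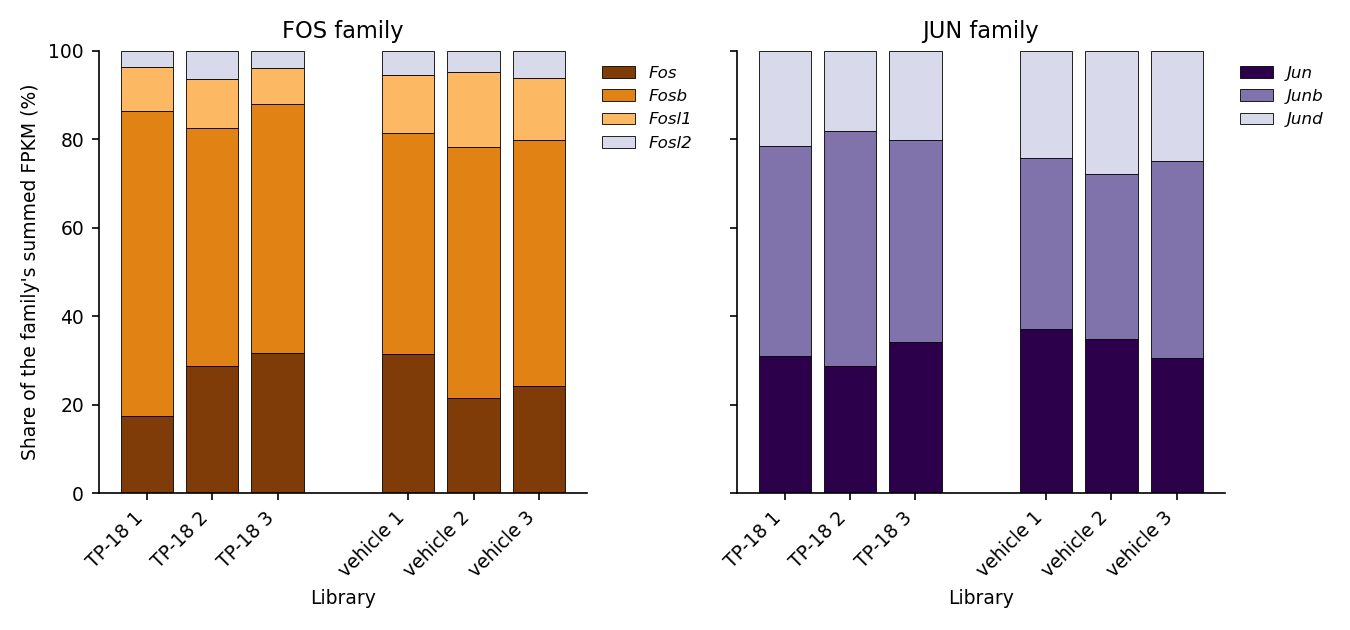
Share (percent) of each gene in the summed FPKM of the FOS family (Fos, Fosb, Fosl1 and Fosl2) and of the JUN family (Jun, Junb and Jund) in each library, TP-18 libraries left of vehicle libraries. Fosl1 takes 8.07% to 11.2% of the FOS sum in TP-18 libraries and 13.1% to 17.0% in vehicle libraries, and Junb takes 45.6% to 53.1% of the JUN sum in TP-18 libraries and 37.2% to 44.6% in vehicle libraries.

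The other bZIP factors, the signalling genes upstream and the genes downstream of AP-1 were counted in 9 lists, in none of which any gene passed the edgeR test. At an unadjusted p under 0.05, where 8.7% of all tested genes were lower and 7.56% higher, the lists held more lower than higher genes in 8 cases and 1 of each in the other. With library totals as scaling, which moved the median of all genes to 0.20, the medians of the CREB and ATF factors, the MAP kinase modules, the MAF, CNC and BACH factors and the AP-1 targets turned positive (0.07, 0.07, 0.04 and 0.15). Of the 5 other AP-1 subunits 2 were lower, Jund and Jdp2, and 1 was higher, Atf7, and the median log2 fold change was -0.19. Jund had 682, 551 and 714 CPM in TP-18 libraries, against 1046, 1047 and 955 CPM in vehicle libraries, with a log2 fold change of -0.65 (edgeR adjusted p = 0.150). Jdp2, a repressor that dimerises with JUN, averaged 72.6 ± 9.23 CPM in TP-18 libraries and 163 ± 35.5 CPM in vehicle libraries (log2 fold change -1.16; edgeR adjusted p = 0.0972). Both groups of libraries were apart for these 2 genes, and DESeq2 called both, with adjusted p of 0.00635 for Jund and 2.59e-05 for Jdp2. Among all tested genes 11.7% were apart and lower, and DESeq2 called 2.51% of the genes it tested lower. Atf7, named here after its value was seen, averaged 125 ± 7.93 CPM in TP-18 and 96.4 ± 12.0 CPM in vehicle libraries (log2 fold change 0.37; edgeR adjusted p = 0.265).

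Further bZIP factors were counted in the same way. Of the 9 MAF, CNC and BACH factors, which include the partners of Maff, 3 were lower at an unadjusted p under 0.05 (among them Mafk and Bach1) and 0 higher, with a median of -0.15. Mafk, another small MAF, averaged 173 ± 16.6 CPM in TP-18 and 281 ± 84.3 CPM in vehicle libraries (log2 fold change -0.70; edgeR adjusted p = 0.219). Of the 10 CREB and ATF factors 3 were lower (Crem, Creb5 and Atf4) and 0 higher, with a median of -0.11. Crem, a cAMP-responsive modulator, had the smallest edgeR adjusted p of all listed genes, 0.0614, at 19.6 ± 1.03 CPM in TP-18 libraries and 47.2 ± 8.40 CPM in vehicle libraries (log2 fold change -1.27), and it passed without a low count filter (0.0329) and in DESeq2 (4.33e-07). Creb5 averaged 83.8 ± 26.9 CPM in TP-18 and 167 ± 37.6 CPM in vehicle libraries (log2 fold change -0.99; edgeR adjusted p = 0.198). Atf4, the effector of the integrated stress response, averaged 482 ± 22.2 CPM in TP-18 and 636 ± 25.9 CPM in vehicle libraries (log2 fold change -0.40; edgeR adjusted p = 0.219), and Atf5 183 ± 64.8 CPM in TP-18 and 171 ± 52.6 CPM in vehicle libraries (log2 fold change 0.10, adjusted p 0.899). Of the 11 C/EBP, PAR and other bZIP factors 5 were lower (Cebpb, Cebpg, Ddit3, Nfil3 and Xbp1) and 1 higher (Dbp), with a median of -0.56. Cebpb, which acts with AP-1 on inflammatory genes of myeloid cells, averaged 193 ± 12.9 CPM in TP-18 and 317 ± 34.3 CPM in vehicle libraries (log2 fold change -0.72; edgeR adjusted p = 0.130), Nfil3 96.3 ± 22.4 CPM in TP-18 and 149 ± 15.8 CPM in vehicle libraries (log2 fold change -0.63, adjusted p 0.213) and Xbp1, of the unfolded protein response, 85.6 ± 7.86 CPM in TP-18 and 124 ± 9.74 CPM in vehicle libraries (log2 fold change -0.53, adjusted p 0.176). Taking instead the authors' own bZIP entries, 34 tested genes other than the members held 12 lower and 2 higher, with a median of -0.22.

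Upstream, 23 genes of the MAP kinase modules that phosphorylate or induce AP-1 proteins held 5 lower (among them Braf, Map2k3, Mapk8 and Mapkapk2) and 1 higher (Mapk14), with a median of -0.11. Map2k3 averaged 128 ± 1.59 CPM in TP-18 and 209.7 ± 49.1 CPM in vehicle libraries (log2 fold change -0.71; edgeR adjusted p = 0.175), and Mapkapk2, which stabilises cytokine mRNAs, 300.1 ± 33.5 CPM in TP-18 and 424 ± 64.2 CPM in vehicle libraries (log2 fold change -0.50, adjusted p 0.229). Mapk3, which encodes an ERK kinase, averaged 197 ± 17.4 CPM in TP-18 and 208 ± 35.4 CPM in vehicle libraries (log2 fold change -0.08; edgeR adjusted p = 0.832). Of the 9 SRF, TCF and MEF2 factors, which drive Fos and Jun transcription through sites in their promoters, 1 was lower, Srf, at 109 ± 9.55 CPM in TP-18 and 158 ± 21.7 CPM in vehicle libraries (log2 fold change -0.54; edgeR adjusted p = 0.200), and 1 higher, Mrtfb, an SRF coactivator, at 40.7 ± 3.50 CPM in TP-18 and 26.8 ± 3.53 CPM in vehicle libraries (log2 fold change 0.60, adjusted p 0.177). Mef2a averaged 301 ± 31.1 CPM in TP-18 and 330.2 ± 53.2 CPM in vehicle libraries (log2 fold change -0.13; edgeR adjusted p = 0.710) and Mef2d 168 ± 33.6 CPM in TP-18 and 173 ± 46.4 CPM in vehicle libraries (log2 fold change -0.04, adjusted p 0.942). This list had the only positive median, 0.24, which was -0.09 without vehicle 2.

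Of the other immediate early genes, which respond to the same signals as Fos and Jun, most had negative log2 fold changes. These were 16 of 18 genes, with 2 positive, against 47.4% negative among all tested genes. Of 18 genes 8 were lower at an unadjusted p under 0.05 and 1 higher, with a median of -0.42. The higher one was Egr1, a zinc finger factor induced through SRF, with 2177 ± 231 CPM in TP-18 libraries and 1584 ± 87.3 CPM in vehicle libraries (log2 fold change 0.46; edgeR adjusted p = 0.210). Its groups were apart, in the direction opposite to Fosl1. Gadd45b, which is induced by stress and NF-kB, averaged 195 ± 20.2 CPM in TP-18 and 373 ± 23.3 CPM in vehicle libraries (log2 fold change -0.94; edgeR adjusted p = 0.0756), Ier5 372 ± 31.4 CPM in TP-18 and 637 ± 22.7 CPM in vehicle libraries (log2 fold change -0.78, adjusted p 0.0972) and Klf6 1376 ± 158 CPM in TP-18 and 1791 ± 215 CPM in vehicle libraries (log2 fold change -0.38, adjusted p 0.285). DESeq2 called 5 genes of this list, all lower, namely Gadd45b, Ier5, Myc, Btg2 and Ppp1r15a. It called 2.51% of all the genes it tested lower. With no pair of lists tested against each other, no list is called particular here.

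Downstream, of 19 textbook AP-1 targets 4 were lower at an unadjusted p under 0.05 (Plaur, Cd44, Il6 and Areg) and 0 higher, with a median of -0.03, which lay between -0.37 and 0.05 when any 1 library was left out. Il6, an inflammatory cytokine with AP-1 and NF-kB sites, averaged 5.23 ± 1.86 CPM in TP-18 libraries and 23.5 ± 13.04 CPM in vehicle libraries (log2 fold change -2.17; edgeR adjusted p = 0.147). Plaur, the urokinase receptor, averaged 236 ± 41.3 CPM in TP-18 and 394 ± 64.2 CPM in vehicle libraries (log2 fold change -0.74; edgeR adjusted p = 0.177), Cd44, a hyaluronan receptor, 779.7 ± 183 CPM in TP-18 and 1242 ± 64.4 CPM in vehicle libraries (log2 fold change -0.67, adjusted p 0.198), and Spp1, which encodes osteopontin, 3076 ± 539.9 CPM in TP-18 and 2789 ± 1017 CPM in vehicle libraries (log2 fold change 0.14, adjusted p 0.833). The groups were apart for Il6, Plaur and Cd44, 3 of the 19, where 11.7% of all tested genes were apart and lower. DESeq2 called the same 3, where it called 2.51% of all the genes it tested lower. Of 10 BATF and IRF partners 4 were lower (Irf4, Irf1, Id2 and Zbtb46) and 0 higher, with a median of -0.37. Irf1 averaged 191 ± 32.7 CPM in TP-18 libraries and 266 ± 19.9 CPM in vehicle libraries (log2 fold change -0.47; edgeR adjusted p = 0.238), Id2, which dendritic cells need, 161 ± 29.9 CPM in TP-18 and 272 ± 24.4 CPM in vehicle libraries (log2 fold change -0.75, adjusted p 0.150), and Zbtb46, a dendritic cell marker, 3.20 ± 0.518 CPM in TP-18 and 7.19 ± 1.70 CPM in vehicle libraries (log2 fold change -1.17, adjusted p 0.158).

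**Figure D5:**
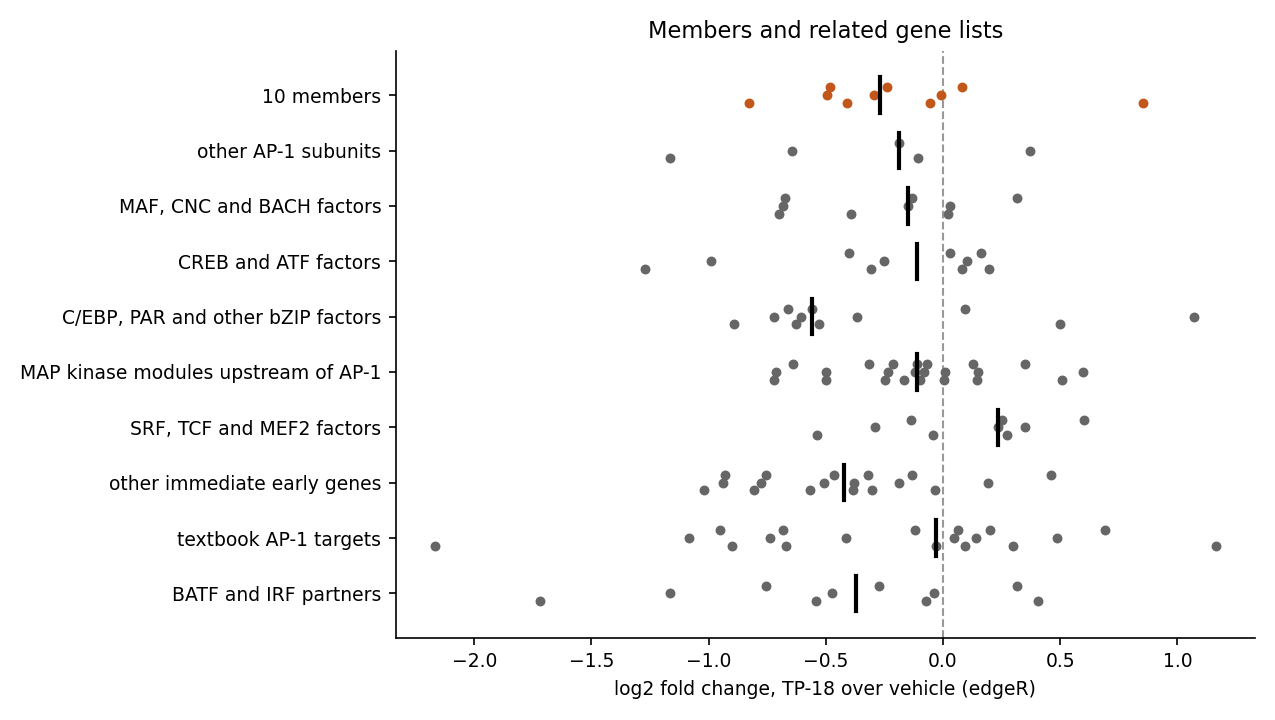
Log2 fold change of TP-18 over vehicle (edgeR) for each tested gene of the 10 members (orange) and of the 9 lists, with a black bar at each median. The medians run from -0.56 for the C/EBP, PAR and other bZIP factors to 0.24 for the SRF, TCF and MEF2 factors, with -0.27 for the members, and no gene shown passed the test.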

How the data were processed

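The counts per gene deposited by the authors were whole numbers for 17191 genes in 6 libraries of RNA-seq from CT26 tumours, on whose cells the labels disagree. They were made with fastp, HISAT2 and HTSeq on GRCm38, per the submitters' processing notes. The versions of these tools, the annotation release and the use of strand are not given in the sources used here. For 17191 of 17191 genes the authors' deposited FPKM equal each count divided by the library's total and by 1 length per gene within a relative tolerance of 1e-06. Groups and replicate numbers came from the labels, which name no batch. Within a group no pair of libraries agreed within counting noise.

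From there, counts were filtered with filterByExpr (minimum count 10, minimum total 15), scaled by TMM (factors 1.05 to 1.07 in TP-18 libraries and 0.924 to 0.962 in vehicle libraries) and tested with edgeR 4.0.16 in R 4.3.3 by the quasi-likelihood test on all 6 libraries, with Benjamini-Hochberg adjustment over 12721 genes and a threshold of 0.05. CPM use TMM-scaled library sizes. Shares were tested by exact permutation. Alternatives were RLE, upper quartile and total scaling, DESeq2 1.42.0, limma 3.58.1 on voom weights or log2(FPKM + 1 or 0.1), other filters, a replicate block and each library left out. The edgeR step was tested on simulated data.

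Named genes were the members and, per list, any gene past the threshold, otherwise the 2 most abundant and the 2 with the smallest p, plus for the 4 most abundant members the 2 most correlated genes. Some listed genes that the rule named are not reported here. Members and lists were chosen with earlier results of these data known. Marker lists of 12 cell types were summed as CPM. Ly6g and Cldn7 were not used here. Chromosome positions are from GENCODE M21, and promoters from RefSeq.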

Additional observations from a re-analysis of the deposited data

How the results depend on the processing

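With 3 libraries a group, a p that misses the threshold does not show that a member did not differ. The count of all genes called was 14 with TMM and edgeR, 499 with DESeq2, 27 without a low count filter, 7 with upper quartile factors, 4 with library totals, and 2 with limma on log2(FPKM + 1) and also on log2(FPKM + 0.1). Leaving out 1 library gave 0 to 8. The samples share only a replicate number (correlations of same-numbered deviations 0.20, 0.39 and -0.15, and not every library correlated best with its own number). With the replicate block 3 genes were called, and Atf3 had a log2 fold change of -0.010, against -0.0076 with limma-voom.

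DESeq2 called 1 member, Fosl1 (-0.84), against 0 in the edgeR test. In every other fit and with any library left out 0 members were called. Scaling by library totals moved the median of all genes to 0.20 from 0.02 and turned Fosb to 0.12 and Junb to 0.17, and limma on log2(FPKM + 1) and log2(FPKM + 0.1) gave 0.088 for Fosb and 0.17 for Junb in both. Junb was 0.045 with upper quartile factors. Under total scaling and both FPKM settings 1 member, Fosl1, had groups that did not overlap, and with 1 library left out there were 3 to 4, where fewer libraries make this easier. Leaving out 1 library gave -0.38 to 0.36 for Atf3, -0.26 to 0.12 for Fosb and -0.11 to 0.036 for Junb. List medians under total scaling, limma on log2(FPKM + 1) and limma on log2(FPKM + 0.1) were -0.012, 0.0078 and 0.011 for other AP-1 subunits, 0.037, 0.012 and 0.044 for MAF, CNC and BACH factors (-0.15 with TMM), 0.065, 0.069 and 0.081 for CREB and ATF factors, -0.38, -0.35 and -0.38 for C/EBP, PAR and other bZIP factors, 0.068, 0.062 and 0.064 for MAP kinase modules, and -0.25, -0.246 and -0.245 for other immediate early genes, and AP-1 targets were at 0.15, 0.12 and 0.12, and at 0.02 with upper quartile factors. DESeq2 called 5 other immediate early genes, 3 each of the C/EBP group and the AP-1 targets, and 2 each of the other AP-1 subunits, CREB and ATF factors, MAP kinase modules and BATF and IRF partners. It called 3.69% of all the genes it tested. Without a low count filter edgeR called 1 CREB and ATF gene, Crem. With 1 library left out, list medians ran from -0.41 to -0.11 for other AP-1 subunits, -0.54 to -0.089 for MAF, CNC and BACH factors, -0.095 to 0.29 for SRF, TCF and MEF2 factors and -0.37 to 0.046 for AP-1 targets. Differences in share of the 10 members ran from -1.62 to 1.28 percentage points for Fos, -1.24 to 4.43 for Fosb, -0.464 to 2.14 for Atf3 and -0.648 to 0.188 for Maff, and that of Fos in the FOS family from -2.69 to 4.40. It was -0.198 with shares of CPM, not per length. The causes were not tested.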
